A study of Homo sapiens with 2 samples.

Results

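The genes described here are 55 members of the Wnt pathway: secreted ligands, their receptors, cytoplasmic and nuclear components, feedback regulators and target genes, and planar polarity genes. They were chosen by gene symbol, with earlier results of these data known, and the co-receptor genes LRP5 and LRP6 were left out. Of the 55, 50 have a row among the 29452 rows of the table, and WNT3A, WNT6, WNT7A, ROR2 and NKD2 were not analysed here. The table holds RNA sequencing of MDA-MB-231 cells, an established human triple-negative breast cancer line of mesenchymal character. A library came from cells with a short hairpin RNA against CDK14 (CDK14-sh) and another from cells with a scramble control hairpin (scramble), with 1 library in each group. No difference below therefore has a replicate check, no p-value is given, and "higher" and "lower" describe these libraries. The labels do not name the hairpin sequence, the number of hairpins, or the time after knockdown.

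In Wnt signalling, secreted lipid-modified ligands bind Frizzled receptors, together with LRP5 or LRP6 in the branch that acts through beta-catenin. Binding stops a cytoplasmic complex of axin, APC and GSK3 from marking beta-catenin for destruction, so that beta-catenin reaches TCF/LEF factors in the nucleus and their target genes. Other branches use receptors such as ROR1, RYK and PTK7 or the planar polarity proteins. CDK14, with its partner cyclin Y, phosphorylates LRP6 at the membrane in mitosis, which is the link between the targeted kinase and these genes.

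Levels are RPKM, reads per kilobase of exon, scaled to the reads assigned to genes in each library. The libraries held 15478156 (CDK14-sh) and 17217564 (scramble) such reads, and 3 reads in a gene of 1 kb correspond to 0.194 and 0.174 RPKM. A gene counted as measured at 1 RPKM or more in the higher library. It counted as higher or lower from 2-fold on the ratio CDK14-sh over scramble with 0.1 RPKM added to each level. That addition shrinks the ratios of low genes. Folds are plain ratios of RPKM, and intervals in parentheses are 95% Clopper-Pearson intervals, which cover counting error only. The targeted gene checks the labels: CDK14 stood at 0.548 RPKM from 58 reads in CDK14-sh and 2.48 RPKM from 292 reads in scramble, 4.53-fold lower (3.40 to 6.11). LRP6 stood at 7.17 RPKM in CDK14-sh and 10.5 RPKM in scramble, LRP5 at 3.90 and 5.01 RPKM, and CCNY, encoding cyclin Y, at 10.3 and 8.57 RPKM. The line's markers VIM, CD44, AXL, CAV1 and MSN were all at 36.1 RPKM or more in both libraries, and their summed level was 482 RPKM in CDK14-sh and 742 RPKM in scramble. ESR1, PGR and CDH1 were at or near 0, ERBB2 stood at 2.96 RPKM in CDK14-sh and 2.33 RPKM in scramble, and the part of this marker difference in the results below was not tested. Of other cell types, 1 of 6 fibroblast markers (COL1A1) reached 1 RPKM, with DCN and LUM at 0 and a summed level of 2.07 RPKM in CDK14-sh and 1.81 RPKM in scramble, and 0 of 3 endothelial and 0 of 2 leukocyte markers did. Of 4 luminal breast markers 3 did, with a sum of 44.8 RPKM in CDK14-sh and 71.2 RPKM in scramble.

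Of the 55 members, 37 were measured and 13 more had a row below that level. Among the 37, AXIN2 and WNT7B were at least 2-fold lower in CDK14-sh and 0 were at least 2-fold higher. In RNA from a whole culture, fewer cells that express a gene and less of its RNA per cell cannot be told apart. Of all 14878 measured rows, 3.47% were at least 2-fold lower and 3.21% at least 2-fold higher. The members are protein-coding, and of the 10430 measured protein-coding rows 226 were lower and 109 higher by 2-fold. Counts of 2 and 0 among 37 are too small to set the members apart. The log2 ratios of the 37 lay from -1.35 (AXIN2) to 0.61 (CCND1), 18 above 0 and 19 below, beside a median of 0.04 over all measured rows. For 12 members the counting interval lay wholly above a ratio of 1 and for 10 wholly below it. Among all measured rows, 27.3% and 22.6% did so, and among the 10430 protein-coding ones 3291 and 2830. Of the measured members, 4 reached 1 RPKM in 1 library alone, AXIN2 and LEF1 in scramble and ZNRF3 and TCF7L1 in CDK14-sh, and a gene that enters in that way had to differ.

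The level minimum hid the lowest and the highest log2 ratio. When a minimum of 30 reads in either library replaced the RPKM minimum, an alternative chosen after seeing the data, 45 members entered. WNT9A then joined WNT7B and AXIN2 as at least 2-fold lower (3 of 45), and FZD3 was at least 2-fold higher (1 of 45). Of all 14744 rows with that many reads, 2.23% were lower and 1.39% higher by 2-fold. Of the 11542 protein-coding rows among them, 255 were lower and 132 higher. WNT9A, at 0.980 RPKM in scramble, and FZD5, at 0.982 RPKM in CDK14-sh, lay just below the RPKM minimum, and AXIN2, at 1.03 RPKM in scramble, lay just above it.

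**Figure D1:**
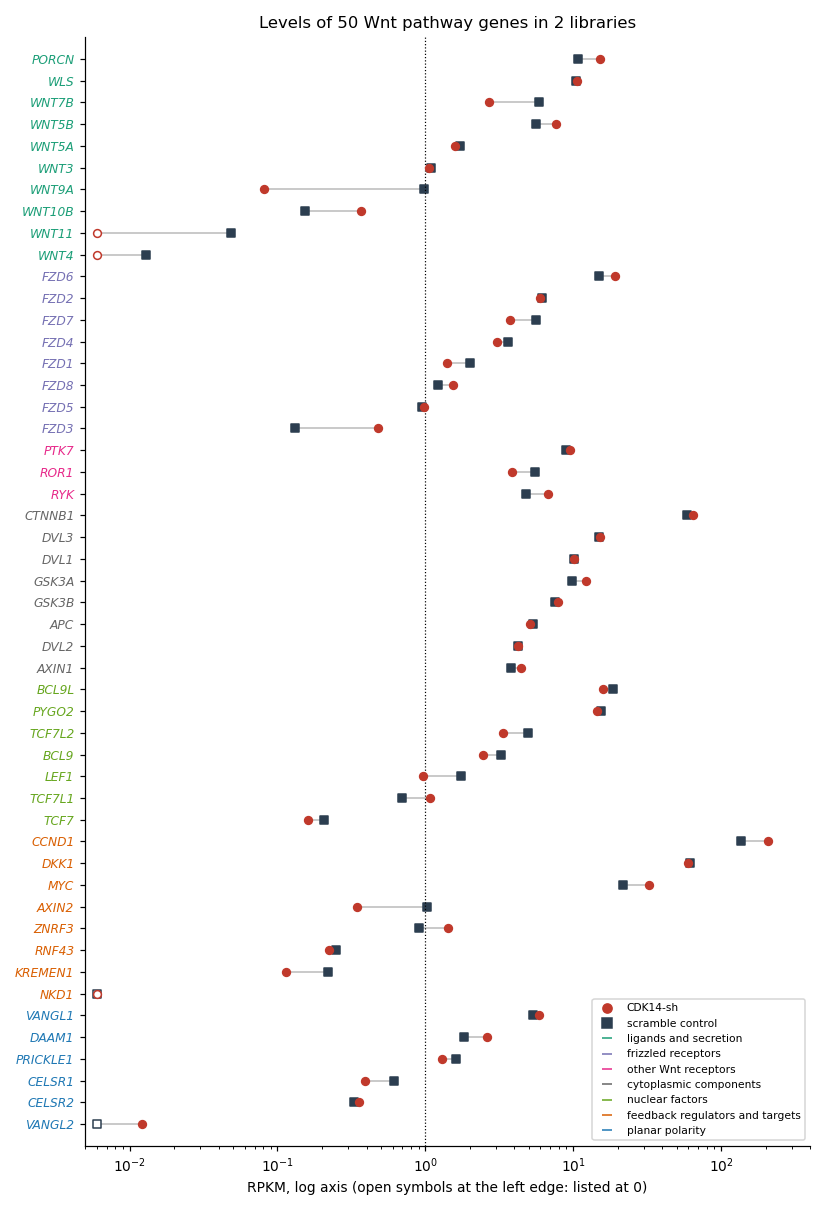
RPKM of the 50 members with a row, on a log axis, in CDK14-sh (red circles) and scramble (dark squares), 1 library each, grouped by role; open symbols at the left edge are levels listed at 0 and the dotted line marks 1 RPKM. Among members with reads in both libraries, WNT9A has the widest gap, 0.0813 RPKM in CDK14-sh against 0.980 RPKM in scramble, while DVL1 and DVL2 coincide.

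Because AXIN2 and LEF1 are the members of the beta-catenin branch with the lowest ratios in their groups, the sequences that they share are shown here. An earlier analysis picked 4 words of 7 bases in 3' untranslated regions from these same ratios, so their presence in a lower member is not independent evidence. They are GTCATGC with its overlapping partner TCATGCA, and ATCCATA with its overlapping partner TCCATAA. The second pair forms ATCCATAA, which the 3' untranslated regions of AXIN2 and LEF1 both hold. Of the members and the other pathway genes described further below, 6 hold this 8-base stretch: AXIN2, LEF1, PTK7, FZD3, LGR4 and EDN1. The sites of 5 of them are printed, with the stretch in capitals and 9 bases on each side, and that of FZD3 is not printed here (GENCODE v29 transcripts, read 5′ to 3′).
AXIN2: ggatctgaaATCCATAAactaagaga
LEF1: gagacgctgATCCATAAagacaatca
LGR4: ttttttctgATCCATAAgaagcaaat
EDN1: ctagctctgATCCATAAgaaaaaaaa
PTK7: agtctcctcATCCATAAaatggagcc
The stretch starts at base 314 of 1413 in AXIN2 and at base 175 of 1213 in LEF1. Of the 6 genes, 4 were at least 1.5-fold lower in CDK14-sh (AXIN2, LEF1, LGR4 and EDN1). FZD3 went the other way, 3.66-fold higher. Among all 14878 measured rows, 1421 were at least 1.5-fold lower and 1355 at least 1.5-fold higher. The sets are unlike: FZD3, below 1 RPKM, is not among these rows. They also include genes that do not code for protein, which were not searched. Because the ratios guided the choice of words, the count of 4 does not tie the stretch to lower RNA. EDN1 was also added after values were seen. EDN1, a target gene encoding endothelin 1, stood at 10.3 RPKM in CDK14-sh and 18.0 RPKM in scramble. PTK7 stood at 9.49 RPKM in CDK14-sh and 8.98 RPKM in scramble.

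Any of the 4 words was found in 15 of the 45 members with at least 30 reads (33.3%), against 25.9% of the 11483 protein-coding rows searched. The 15 had a median log2 ratio of -0.10 and 11 lay below 0, while the 30 without a word had a median of 0.06 and 13 lay below 0. Over protein-coding rows the medians were -0.09 with and 0.07 without a word. The other pathway genes with at least 30 reads, 55 in number, did not split in this way. The 20 with a word had a median of -0.03 and 10 lay below 0. The 35 without a word had a median of -0.02 and 18 lay below 0. Median lengths of the regions were 2124 bases in members with a word and 1526 bases in members without one. Over protein-coding rows they were 3061 and 1030 bases, and neither shares nor medians were matched on length. WNT9A and WNT7B hold none of the words, and FZD3, which was higher, holds 4 matches, the 8-base stretch among them, in a region of 11257 bases. The part of these words in the ratios was not tested.

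**Figure D2:**
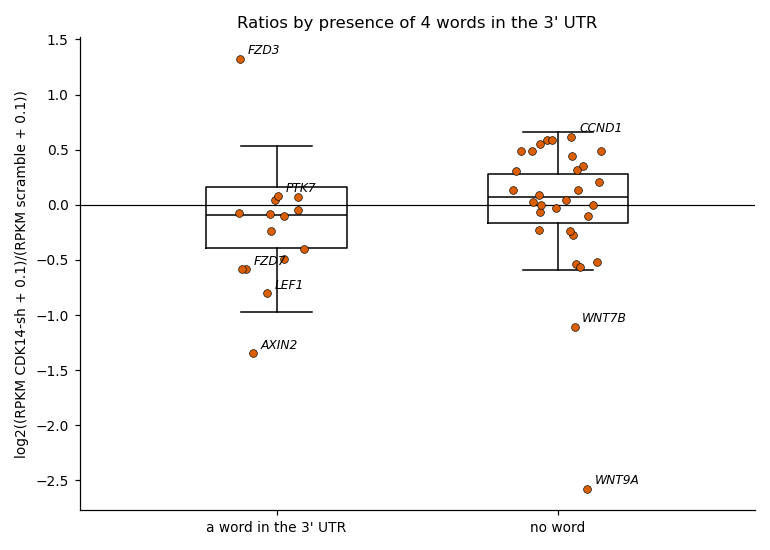
Log2 ratio (0.1 RPKM added) of members that reach 30 reads in a library, as points, by presence of any of the 4 words in the 3' untranslated region; boxes give the median and quartiles, and whiskers the 5th to 95th percentile, of protein-coding rows with at least 30 reads. AXIN2 and LEF1 are the lowest members with a word, and WNT9A and WNT7B the lowest without one.

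Of the 11 listed ligand genes, 8 had a row and 4 were measured. WNT9A, a ligand gene on chromosome 1 (chr1:227918656-227947898, minus strand, GRCh38), had 5 reads in CDK14-sh and 67 reads in scramble, or 0.0813 and 0.980 RPKM. That is 12.0-fold lower (4.91 to 38.3), and among 11542 protein-coding rows with at least 30 reads its ratio ranked 2 from the lowest. WNT7B (chr22:45920362-45977129, minus strand) had 209 reads in CDK14-sh and 511 reads in scramble, at 2.67 and 5.88 RPKM, 2.20-fold lower (1.87 to 2.59). Both intervals stay away from 1, and neither row shares exons with another row.

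WNT5B, which signals mainly without beta-catenin, went the other way: 7.70 RPKM from 513 reads in CDK14-sh and 5.63 RPKM from 417 reads in scramble, 1.37-fold higher (1.20 to 1.56). Its relative WNT5A stood at 1.60 RPKM in CDK14-sh and 1.72 RPKM in scramble, and WNT3, a ligand of the beta-catenin branch, at 1.06 and 1.10 RPKM, with intervals that held a ratio of 1 in both cases. WNT10B had 15 reads in CDK14-sh and 7 reads in scramble, too few for the interval of its ratio (0.915 to 6.91) to leave 1. WNT4 (0 and 1 reads) and WNT11 (0 and 2 reads) were at or below 3 reads in both libraries, so no fold is given. The ligand genes summed to 13.5 RPKM in CDK14-sh and 15.5 RPKM in scramble. Within that sum WNT5B made up 57.1% in CDK14-sh and 36.3% in scramble, WNT7B 19.8% and 37.9%, and WNT9A 0.604% and 6.32%. The most abundant ligand transcript was thus WNT5B in CDK14-sh, while WNT7B and WNT5B were nearly level in scramble.

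Ligand release was covered by PORCN, the acyltransferase that lipidates Wnt proteins, and WLS, their carrier to the cell surface. PORCN stood at 15.2 RPKM from 709 reads in CDK14-sh and 10.8 RPKM from 562 reads in scramble, 1.40-fold higher (1.25 to 1.57). WLS stood at 10.7 RPKM in CDK14-sh and 10.5 RPKM in scramble, and its interval held a ratio of 1.

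**Figure D3:**
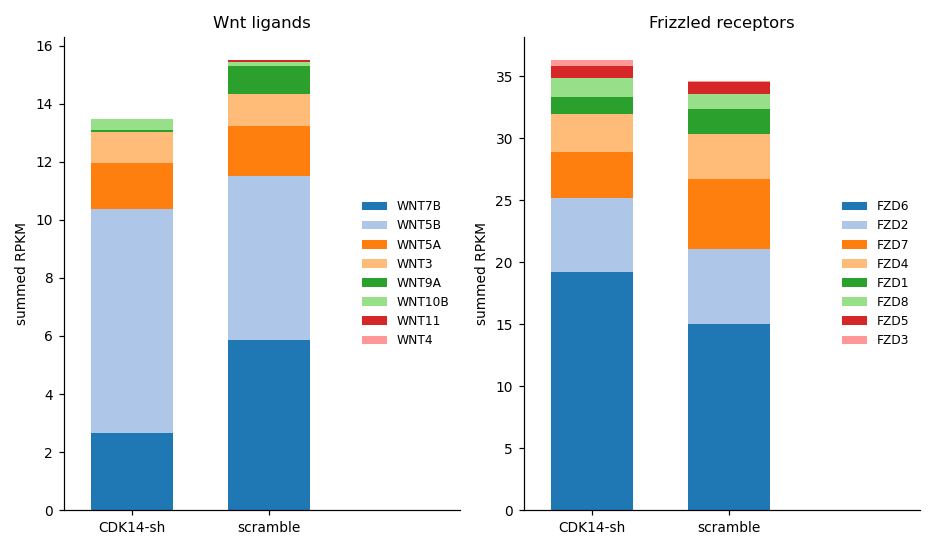
Summed RPKM of the Wnt ligand genes (left) and Frizzled genes (right) with a row, stacked by gene, in CDK14-sh and scramble, 1 library each. The WNT7B and WNT9A segments are thinner in CDK14-sh and the WNT5B and FZD6 segments thicker, while the totals are 13.5 against 15.5 RPKM for ligands and 36.3 against 34.6 RPKM for Frizzled genes.

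To show the sequence at the start of the ligand gene with the lowest log2 ratio, and of DKK1, a known target and secreted inhibitor of the pathway, the 250 bases before their transcription starts are given (RefSeq, GRCh38.p14, 5′ to 3′ on the gene's strand). Capitals mark a TCF/LEF word, CTTTGAT or CTTTGAA on either strand.
DKK1: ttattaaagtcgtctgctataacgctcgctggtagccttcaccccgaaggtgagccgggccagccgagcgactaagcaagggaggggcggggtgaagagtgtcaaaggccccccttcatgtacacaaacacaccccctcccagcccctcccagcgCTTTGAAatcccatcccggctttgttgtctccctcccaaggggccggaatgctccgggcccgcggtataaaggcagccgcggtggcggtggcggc
WNT9A: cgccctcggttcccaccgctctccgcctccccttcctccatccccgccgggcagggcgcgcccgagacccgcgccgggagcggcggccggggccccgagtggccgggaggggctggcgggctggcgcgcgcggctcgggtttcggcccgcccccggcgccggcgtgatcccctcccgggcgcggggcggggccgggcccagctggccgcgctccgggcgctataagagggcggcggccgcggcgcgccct
The windows are chr10:52314031-52314280 (plus strand) and chr1:227947933-227948182 (minus strand). Windows from 250 bases before to 50 after a start were on hand for 40 members, in 52 windows, and 1 of these windows, that of DKK1, held a word. Among windows of protein-coding rows, 4.74% held one. AXIN2, WNT7B, FZD3 and CCND1 had no window. A match describes letters in this window and is not a site.

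All 8 listed Frizzled receptor genes had a row and 6 were measured. FZD6, which acts mostly outside the beta-catenin branch, was the most abundant, at 19.2 RPKM from 1208 reads in CDK14-sh and 15.0 RPKM from 1050 reads in scramble, 1.28-fold higher (1.18 to 1.39). FZD3, its relative and a receptor of axon guidance and tissue polarity, had 102 reads in CDK14-sh and 31 reads in scramble, at 0.478 and 0.131 RPKM. That is 3.66-fold higher (2.43 to 5.66), rank 36 from the highest among the 11542 protein-coding rows, at a low level in both libraries.

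The closely related FZD1, FZD2 and FZD7 all had ratios below 1, FZD2 with an interval that held 1. FZD7 stood at 3.72 RPKM in CDK14-sh and 5.63 RPKM in scramble, 1.51-fold lower (1.28 to 1.80), and FZD1 at 1.39 and 2.002 RPKM, 1.44-fold lower (1.17 to 1.78). FZD2 stood at 5.996 RPKM in CDK14-sh and 6.11 RPKM in scramble, and its log2 ratio turned above 0 when mitochondrial reads were left out. Reads that fit several members of such a family cannot be assigned with certainty. FZD4, the receptor of the ligand norrin, stood at 3.05 RPKM in CDK14-sh and 3.60 RPKM in scramble, 1.18-fold lower (1.03 to 1.36). It shares 18.9% of its exon length with PRSS23, a row at 33.0 RPKM in CDK14-sh and 42.1 RPKM in scramble. FZD8 stood at 1.54 RPKM in CDK14-sh and 1.23 RPKM in scramble and FZD5 at 0.982 and 0.952 RPKM, both with intervals that held 1. The median log2 ratio of the 6 measured receptors was -0.13.

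The 3 other Wnt receptor genes with a row each behaved differently. ROR1, a receptor tyrosine kinase-like protein that binds WNT5A, stood at 3.83 RPKM from 398 reads in CDK14-sh and 5.54 RPKM from 641 reads in scramble, 1.45-fold lower (1.28 to 1.64). RYK, a Wnt receptor with an inactive kinase domain, stood at 6.75 RPKM from 841 reads in CDK14-sh and 4.78 RPKM from 662 reads in scramble, 1.41-fold higher (1.27 to 1.57). PTK7, a pseudokinase of planar polarity, was the most abundant of them, and its interval held 1.

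Cytoplasmic components lay closest together: the 8 measured genes had log2 ratios from -0.07 to 0.31, with a median of 0.06. CTNNB1, encoding beta-catenin, was the most abundant, at 64.3 RPKM from 6581 reads in CDK14-sh and 58.5 RPKM from 6658 reads in scramble, a ratio of 1.10 (1.06 to 1.14). Its direction turned when each library was rescaled to a common sum of RPKM (TPM), where its log2 ratio was -0.02. GSK3A, encoding a kinase of the destruction complex, stood at 12.2 RPKM in CDK14-sh and 9.83 RPKM in scramble, 1.25-fold higher (1.12 to 1.38), and its row shares 11.6% of its exon length with another row. AXIN1, the scaffold of that complex, stood at 4.40 RPKM in CDK14-sh and 3.81 RPKM in scramble, 1.16-fold higher (1.02 to 1.31).

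The Dishevelled genes, whose proteins relay the signal from Frizzled, were nearly identical between the libraries. DVL1 stood at 10.1 RPKM in both, DVL2 at 4.21 RPKM in CDK14-sh and 4.22 RPKM in scramble, and DVL3 at 15.3 and 14.8 RPKM. GSK3B stood at 7.92 RPKM in CDK14-sh and 7.54 RPKM in scramble, and APC at 5.13 and 5.38 RPKM. The intervals of these 5 genes held 1, and the ratios of DVL3 and GSK3B also turned below 1 in TPM.

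**Figure D4:**
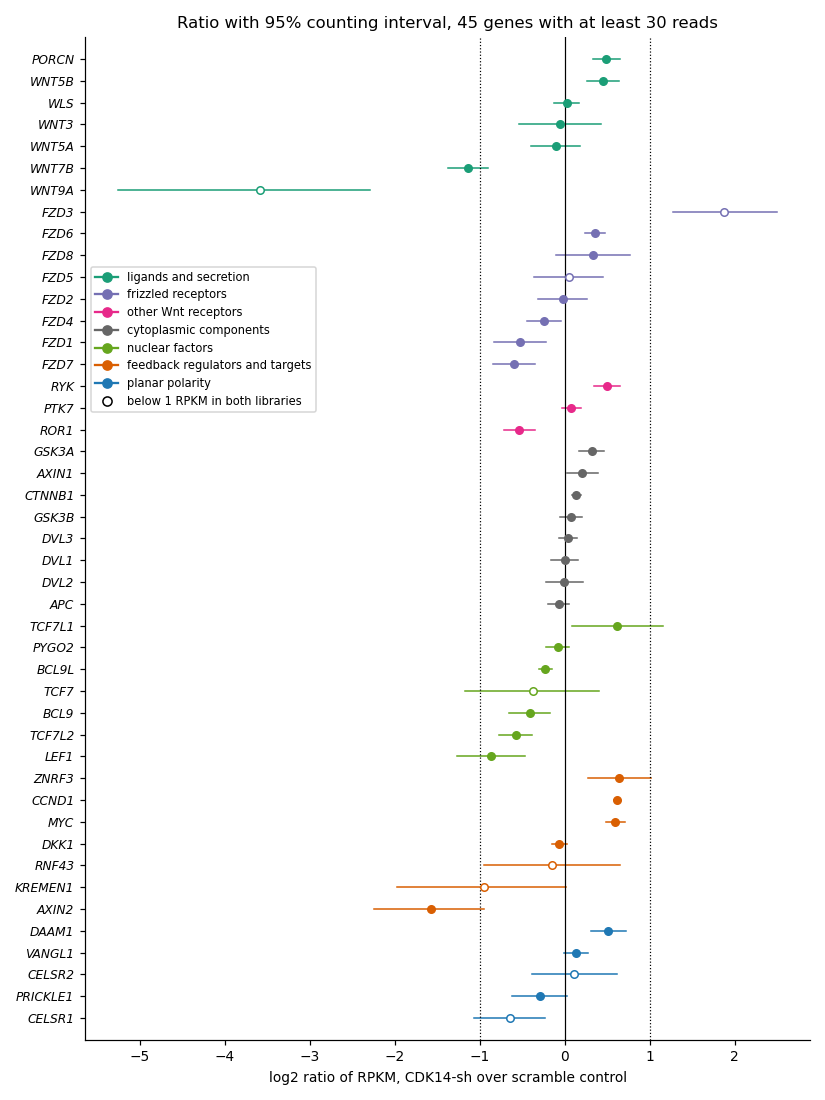
Log2 ratio of RPKM, CDK14-sh over scramble, for the 45 members that reach 30 reads in either library, with 95% counting intervals and colours by role; open points are below 1 RPKM in both libraries and dotted lines mark 2-fold. Cytoplasmic components cluster around 0, nuclear factors lie mostly left of 0, and WNT9A and FZD3 lie farthest out.

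Among nuclear factors, 5 of 6 measured genes had a log2 ratio below 0, with a median of -0.31. Of all 14878 measured rows, 6743 lay below 0. The median of this small group turned above 0 over rows that overlap no other, as given in the closing section. LEF1, a TCF/LEF factor that is itself a target of the pathway (chr4:108047545-108168956, minus strand), had 80 reads in CDK14-sh and 162 reads in scramble, at 0.964 and 1.76 RPKM. It was 1.82-fold lower (1.38 to 2.41). TCF7L2, the TCF factor with the highest level here, stood at 3.33 RPKM from 347 reads in CDK14-sh and 4.96 RPKM from 575 reads in scramble, 1.49-fold lower (1.30 to 1.71). TCF7L1, mostly known as a repressor, was the exception, at 1.07 RPKM from 73 reads in CDK14-sh and 0.697 RPKM from 53 reads in scramble, 1.53-fold higher (1.06 to 2.23). TCF7 had 25 reads in CDK14-sh and 36 reads in scramble, and its interval held 1.

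BCL9, BCL9L and PYGO2 encode adaptors that bring co-activators to beta-catenin. BCL9 stood at 2.44 RPKM in CDK14-sh and 3.24 RPKM in scramble, 1.33-fold lower (1.13 to 1.57). Its relative BCL9L stood at 15.9 RPKM in CDK14-sh and 18.6 RPKM in scramble, 1.17-fold lower (1.11 to 1.23), and 38.8% of its exon length is shared with other rows. PYGO2, which binds BCL9 proteins, stood at 14.5 RPKM in CDK14-sh and 15.4 RPKM in scramble, with an interval that held 1. It shares 13.3% of its exon length with other rows, among them SHC1 on the same strand.

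Feedback regulators and target genes split in direction. AXIN2, a negative feedback scaffold and widely used readout of beta-catenin activity (chr17:65528563-65561647, minus strand), had 28 reads in CDK14-sh and 93 reads in scramble, at 0.346 and 1.03 RPKM. It was 2.99-fold lower (1.94 to 4.73). Of its exon length, 25.2% is shared with a row on the same strand, CTD-2535L24.2, which had 20 reads in CDK14-sh and 47 reads in scramble. Reads of the shared exons cannot be told apart.

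The target genes CCND1 and MYC lay on the other side. CCND1, encoding cyclin D1, stood at 209 RPKM from 15606 reads in CDK14-sh and 136 RPKM from 11333 reads in scramble, 1.53-fold higher (1.495 to 1.569). Of its exon length, 10.3% is shared with ORAOV1, a row on the opposite strand. MYC, encoding a growth-promoting transcription factor, stood at 32.7 RPKM from 1519 reads in CDK14-sh and 21.7 RPKM from 1119 reads in scramble, 1.51-fold higher (1.40 to 1.63). Both genes are also known to respond to other pathways. In TPM, CCND1 had a log2 ratio of 0.46 and MYC of 0.44, against 0.61 and 0.59 in RPKM.

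DKK1, a secreted inhibitor that binds LRP6, was the most abundant member after CCND1 and, in CDK14-sh, CTNNB1: 59.4 RPKM from 2027 reads in CDK14-sh and 62.0 RPKM from 2355 reads in scramble, with an interval that held 1. ZNRF3, a ubiquitin ligase that removes Frizzled from the surface, stood at 1.42 RPKM from 153 reads in CDK14-sh and 0.909 RPKM from 109 reads in scramble, 1.56-fold higher (1.21 to 2.01). Its relative RNF43 had 26 reads in CDK14-sh and 32 reads in scramble, with an interval that held 1. RNF43 shares 20.3% of its exon length with other rows. These include SUPT4H1 on the same strand, with 880 reads in CDK14-sh and 957 reads in scramble. KREMEN1, a receptor of DKK1, had 14 reads in CDK14-sh and 30 reads in scramble, with an interval from 0.990-fold to 3.93-fold lower. NKD1, an inhibitor of Dishevelled, was listed at 0 in both libraries, where 3 reads would be 0.01112 RPKM in CDK14-sh and 0.009999 RPKM in scramble. The median log2 ratio of this group was 0.59 over the 5 measured genes and -0.06 over the 7 with at least 30 reads, so it depends on which low genes enter.

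Of the planar polarity genes, 3 were measured. DAAM1, a formin that links Dishevelled to actin, stood at 2.62 RPKM from 434 reads in CDK14-sh and 1.83 RPKM from 338 reads in scramble, 1.43-fold higher (1.24 to 1.65). VANGL1, a core polarity membrane protein, stood at 5.88 RPKM in CDK14-sh and 5.36 RPKM in scramble, and PRICKLE1, its cytoplasmic partner, at 1.30 and 1.60 RPKM, and both intervals held 1. PRICKLE1 shares 28.7% of its exon length with other rows. Below 1 RPKM, the polarity cadherin gene CELSR1 had 78 reads in CDK14-sh and 136 reads in scramble, 1.57-fold lower (1.18 to 2.10), while CELSR2 had 68 and 70 reads. VANGL2 had 1 read in CDK14-sh and 0 in scramble, so no fold is given.

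**Figure D5:**
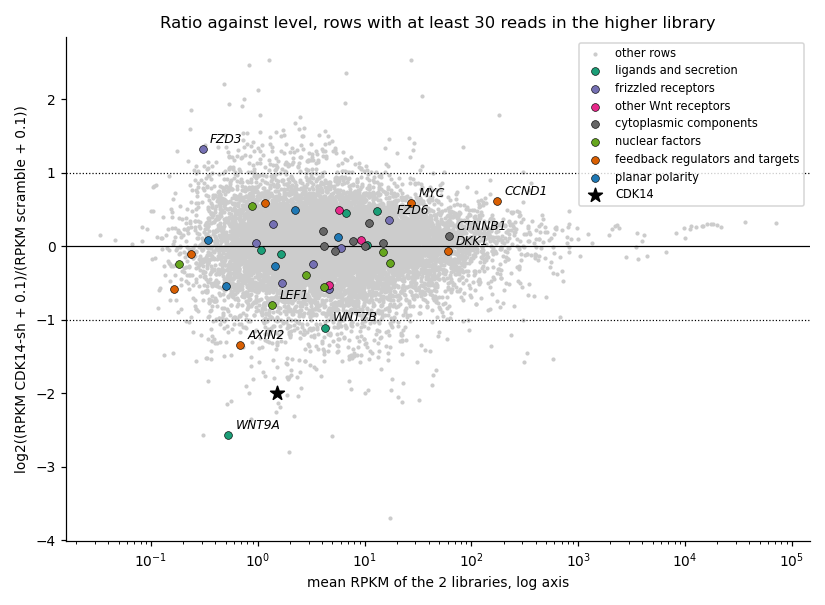
Log2 ratio (0.1 RPKM added) against the mean RPKM of the 2 libraries (log axis) for rows that reach 30 reads in either library; members are coloured by role, other rows are grey, the star is CDK14 and dotted lines mark 2-fold. WNT9A, at -2.57, lies below CDK14, at -1.99.

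A list of 98 further pathway symbols, covering the rest of the pathway, gave 80 with a row and 44 measured. TLE5 and AES in that list are names of the same gene, of which AES had a row. Of the 44, BMP4 and L1CAM were at least 2-fold lower in CDK14-sh and 0 were at least 2-fold higher, with a median log2 ratio of -0.03. Of all 14878 measured rows, 516 were at least 2-fold lower and 478 at least 2-fold higher. Among the 10430 protein-coding ones, 226 and 109 were. BMP4, encoding a bone morphogenetic protein, stood at 5.51 RPKM in CDK14-sh and 12.4 RPKM in scramble, 2.26-fold lower (1.95 to 2.61). L1CAM, encoding an adhesion molecule known as a target in colon cancer, stood at 4.16 RPKM from 478 reads in CDK14-sh and 10.2 RPKM from 1303 reads in scramble, 2.45-fold lower (2.21 to 2.73). FOSL1, encoding an AP-1 factor, was the target gene with the largest ratio, at 445 RPKM in CDK14-sh and 263 RPKM in scramble, 1.69-fold higher (1.65 to 1.74).

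Receptors for R-spondins, ligands that strengthen Wnt signalling by engaging ZNRF3 and RNF43, were lower where they were detected. LGR4 stood at 6.67 RPKM from 655 reads in CDK14-sh and 12.7 RPKM from 1390 reads in scramble, 1.91-fold lower (1.74 to 2.10). LGR6 had 10 reads in CDK14-sh and 47 reads in scramble, 4.23-fold lower (2.11 to 9.38), below 1 RPKM in both. LGR5 had 0 reads in CDK14-sh and 6 reads in scramble.

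Among antagonists, SOST, encoding the LRP inhibitor sclerostin, had 1 read in CDK14-sh and 14 reads in scramble, too low to be measured. TRABD2A, a protease that inactivates Wnt ligands, was the measured gene, at 1.74 RPKM in CDK14-sh and 3.01 RPKM in scramble, 1.73-fold lower (1.47 to 2.03). The 14 other cytoplasmic components measured ranged from -0.65 (TNKS2, a tankyrase that marks axin for degradation) to 0.77 (AMER1, which recruits the destruction complex to the membrane). AMER1 stood at 3.18 RPKM from 415 reads in CDK14-sh and 1.82 RPKM from 264 reads in scramble, 1.75-fold higher (1.49 to 2.05). TNKS2 stood at 7.94 RPKM in CDK14-sh and 12.5 RPKM in scramble, 1.57-fold lower (1.44 to 1.72).

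Of 10 other nuclear factors measured, 7 lay below 0, beside 6743 of all 14878 measured rows. CDC73, a subunit of the PAF1 complex that binds beta-catenin, stood at 10.4 RPKM in CDK14-sh and 17.2 RPKM in scramble, 1.65-fold lower (1.52 to 1.79). SOX9 was the highest of them, at 29.6 RPKM in CDK14-sh and 18.6 RPKM in scramble, 1.59-fold higher (1.48 to 1.71). The 7 other polarity genes measured lay from -0.45 (PRICKLE2) to 0.53 (PRICKLE3), with a median of -0.02.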

How the data were processed

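The authors deposited a table of RPKM values for 2 libraries, prepared with a stranded mRNA kit, per the labels' protocols and the file headers. Per the submitters' processing notes, the tools were Subread 1.5.1, Bowtie 0.12.2 and featureCounts, with mm8 and GRCh38 as builds; no roles are stated. The sources used here do not state strand, overlap or multi-mapping options. Reads per row were recovered because RPKM times exon length was a whole multiple of 1 step in each library (100% of nonzero values, tolerance 0.01 read). Coordinates are those of the table, on GRCh38, and rows were matched to GENCODE 29. With 1 library per group no count test was run. Members, lists and naming rules were chosen with earlier results of these data known. All members are named; other pathway genes are named past 2-fold, at any level, or, if measured, as the largest ratio of a subgroup in either direction, and EDN1, LGR5 and the neighbouring genes were added after values were seen. Protein features were not analysed. Exons of 11992 rows overlap another row. PCR copies are not independent molecules. The alternatives are in the closing section. Computation used Python 3.11.15 with scipy 1.17.1 and numpy 2.4.6. Tables were handled in pandas 2.3.3 and plots drawn in matplotlib 3.10.9.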

Additional observations from a re-analysis of the deposited data

How the results depend on the processing

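No paired analysis was possible because the table has 1 CDK14-sh and 1 scramble library. Members at least 2-fold lower and higher numbered 2 and 0, and other pathway genes 2 and 0. Of all 14878 measured rows, 516 and 478 were. With a pseudocount of 1 RPKM, 0 members were lower, and CDK14 stood at -1.17 against -1.99, since that amount weighs on low levels. Of all 14878 measured rows, 259 were then lower and 176 higher. With no level filter 3 members were lower and 1 higher, and 4 other pathway genes were lower. Of all 29452 rows, 2043 were then lower and 2173 higher. The median log2 ratio of feedback regulators and targets was -0.031 against 0.59. With at least 30 reads and no RPKM minimum (chosen after seeing the data), 1 member was higher and that median was -0.063. Of all 14744 such rows, 205 were higher and 329 lower. At least 5 RPKM left 1 lower member, WNT7B, beside 177 lower and 83 higher of all 7933 such rows. Over rows overlapping no other, 1 member (WNT7B) and 1 other pathway gene were lower, beside 315 lower and 307 higher of all 6973 such rows. The medians of nuclear factors and planar polarity genes, over 2 genes each, were 0.077 and 0.31 there against -0.31 and 0.13. CDK14, AXIN2 and LEF1 are not among such rows. At 1.5-fold, 3 members were higher (CCND1, MYC, ZNRF3) and 4 lower (AXIN2, FZD7, LEF1, WNT7B), and 3 other pathway genes were higher and 7 lower. Of all 14878 measured rows, 1355 were higher and 1421 lower at that threshold. These rows include genes that do not code for protein, unlike the members, and such small counts do not set the members apart. TPM shifts every plain ratio by -0.15 log2. Log2 ratios with 0.1 added to each level moved by other amounts at low levels, as for WNT9A, at -3.02 against -2.57. In TPM, 4 other pathway genes were lower. The medians of other Wnt receptors and cytoplasmic components were -0.073 and -0.10 against 0.08 and 0.06. That of polarity genes, with 1 more gene, was -0.23 against 0.13. In sign, 6 measured members changed (WLS, PTK7, DVL3, CTNNB1, GSK3B, VANGL1). Among all 17068 rows at 1 TPM or more, 1128 were at least 2-fold lower and 609 at least 2-fold higher. Median centring turned WLS and DVL3, and totals without mitochondrial reads turned FZD2 and DVL2. Settings that filter keep each ratio and change which genes enter. Single genes gave 455 values over 11 alternatives: 434 lay inside the main counting interval, 21 outside it, and 0 past 2-fold changed sign. These counts were partly fixed in advance. Filters and the 1.5-fold threshold leave each ratio inside its interval, and no pseudocount can turn a sign. The rescalings shift ratios by too little to turn one past 2-fold. Depth limits genes with few reads: WNT9A, AXIN2 and FZD3 rest on 5, 28 and 31 reads in their lower library.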

Other observations

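The nearest 2 measured protein-coding rows on each side of the members past 2-fold were looked up after the values were seen. Around WNT9A, SNAP47 and JMJD4 on one side stood 1.33-fold and 1.47-fold higher in CDK14-sh, and ARF1 and C1orf35 on the other side had ratios of 1.04 and 0.958. Around AXIN2 the neighbours lay farther apart in value: GNA13, encoding a G protein subunit and 472 kb away, stood at 3.86 RPKM in CDK14-sh and 11.3 RPKM in scramble, 2.93-fold lower. PRKCA, encoding protein kinase C alpha and 741 kb away, stood at 3.14 RPKM in CDK14-sh and 8.19 RPKM in scramble, 2.61-fold lower. SMURF2, encoding a ubiquitin ligase and 866 kb away, stood at 73.7 RPKM in CDK14-sh and 36.5 RPKM in scramble, 2.02-fold higher. CEP112, 73.9 kb from AXIN2, was 1.38-fold lower. The 4 such rows around WNT7B and the 4 around FZD3 all lay within 2-fold, as did most measured rows. Of all measured rows, 3.47% were at least 2-fold lower and 3.21% at least 2-fold higher. Of the 10430 protein-coding ones, 226 were lower and 109 higher. A link between neighbouring genes was not tested.

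The 8-base stretch ATCCATAA shared by AXIN2 and LEF1 occurred in the 3' untranslated regions of 313 protein-coding rows with at least 30 reads. Of these, 22 (7.03%) were at least 2-fold lower in CDK14-sh, with a median log2 ratio of -0.20. Of the 11170 rows without it, 232 (2.08%) were, with a median of 0.04. The words that form it were picked from these same ratios, and the rows were not matched on length, so this describes these libraries and was not tested further.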
